A study of Mus musculus with 6 samples.

Results

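The nuclear genes for subunits of the oxidative phosphorylation complexes were compared between C2C12 myotubes given RANKL and myotubes given vehicle. Members were all symbols of the deposited count table that begin with Nduf and a subunit letter and number, the symbols Sdha to Sdhd and Cyc1, and those that begin with Uqcr, Cox4 to Cox8 or Atp5. This gave 79 of 12625 genes. C2C12 is an immortalised mouse myoblast line whose cells fuse into myotubes when they differentiate. After 5 days of differentiation, 3 samples labelled RANKL received recombinant mouse RANKL (TNFSF11, the ligand of the receptor RANK) at 100 ng per ml for 72 h, and 3 labelled Control received vehicle. All 6 libraries are of this 1 cell line and carry no genetic change by the labels, which do not say whether the replicates were separate cultures, so that p-values reflect only how these samples varied, a variation that may be technical.

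Oxidative phosphorylation takes place in the inner mitochondrial membrane. Complexes I and II pass electrons from NADH and succinate to ubiquinone, complex III passes them on to cytochrome c, and complex IV to oxygen. Complexes I, III and IV pump protons, and complex V, the ATP synthase, uses the gradient to make ATP. Striated muscle depends on this machinery, and in mature muscle some complex IV subunits are replaced by muscle isoforms, Cox6a2, Cox7a1 and Cox8b. By their roles, 34 members belonged to complex I, 4 to complex II, 9 to complex III, 11 to complex IV (with Ndufa4, which is now counted as a complex IV subunit despite its name) and 15 to complex V. The 3 muscle isoforms were set apart. Another 3 genes that the name pattern caught are not subunits of the complexes: Cox7a2l, a factor of respiratory supercomplexes, and Atp5s and Atp5sl.

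Each library held 32732604 to 39677999 counts, of which the members together took 0.804% to 0.892%. Levels are given as CPM (counts per 1000000, scaled by TMM) or, between genes, as RPKM (CPM per kilobase of gene). Of 12 myotube markers 11 were measured, and their summed level was 25220 to 25540 CPM in the vehicle libraries and 23350 to 24280 under RANKL. Of these 11, edgeR called 0 higher and 4 lower (Acta1, Myh8, Myh3 and Ryr1), with 1 higher at an unadjusted p under 0.05. The list was mixed: 6 of the 11 had a log2 fold change above 0, with a median of 0.01 and a range from -0.35 to 0.22. In the summed level, Acta1 alone went from a mean of 6072 CPM under vehicle to 5325 CPM under RANKL. For all marker lists a call is an adjusted p under 0.05, which over all genes gave 5.35% higher and 7.5% lower. Markers of cycling cells moved with the groups, with 7 of 10 higher and 0 lower. Their summed level was 155 to 162 CPM under vehicle and 197 to 229 CPM under RANKL. Of 6 genes listed as markers of undifferentiated myoblasts 2 fell, Cdh15 and Itga7. Their vehicle means in these differentiated cultures were 399.5 and 1995 CPM, and whether their fall reflects undifferentiated cells was not tested. Of 5 fibroblast markers 1 was called higher (Col3a1) and 0 lower. All 5 had a log2 fold change above 0, with a median of 0.19, and 3 were higher at an unadjusted p under 0.05. Their summed level was 4424 to 4677 CPM under vehicle and 4899 to 5477 CPM under RANKL. Of 7 macrophage markers 2 were measured, with a summed level of 1.20 to 1.35 CPM under vehicle and 1.54 to 2.47 CPM under RANKL, and 0 of 5 adipocyte markers. The part of these cells in the results below was not tested, and in bulk RNA a change in the number of cells of a type and a change in RNA per cell cannot be told apart.

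The oxidative phosphorylation genes as a whole changed little. With edgeR's quasi-likelihood test and Benjamini-Hochberg adjustment over all genes, 6 of 79 members rose and 0 fell, that is 7.59% higher against 5.35% of all genes higher and 7.5% lower. The 6 were Cox8b, Cox6c, Atp5j2, Ndufs1, Ndufb11 and Uqcrfs1, from complexes I, III, IV and V. Apart from Cox8b, their fold changes lay between 1.08 and 1.13. At an unadjusted p under 0.05 there were 24 of 79 members higher and 0 lower, against 1596 (12.6%) and 1836 (14.5%) of all 12625 genes. With scaling to total counts in place of TMM, 12 members rose and 0 fell, against 8.48% and 4.96% of all genes. Under TMM the share called higher at an adjusted p under 0.05 was near that of all genes. The share higher at an unadjusted p under 0.05 was above it.

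The members were shifted upwards together by a small amount. Of the 79 log2 fold changes, 68 were above 0, with a median of 0.07, against 51.7% of all genes above 0 and a median of 0.00. In 21 of 79 members the lowest RANKL library exceeded the highest vehicle library, and in 0 members the groups were separated the other way. Over all 12625 genes this held for 1883 (14.9%) and 2093 (16.6%). The medians were 0.07 for complex I, 0.04 for complex II, 0.05 for complex III, 0.09 for complex IV and 0.06 for complex V. Of the 73 subunits of complexes I to V without the muscle isoforms, 72 had a 95% interval of the log2 fold change that lay within 0.3 of zero on both sides. The exception was Ndufb4, whose interval ran up to 0.41.

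**Figure D1:**
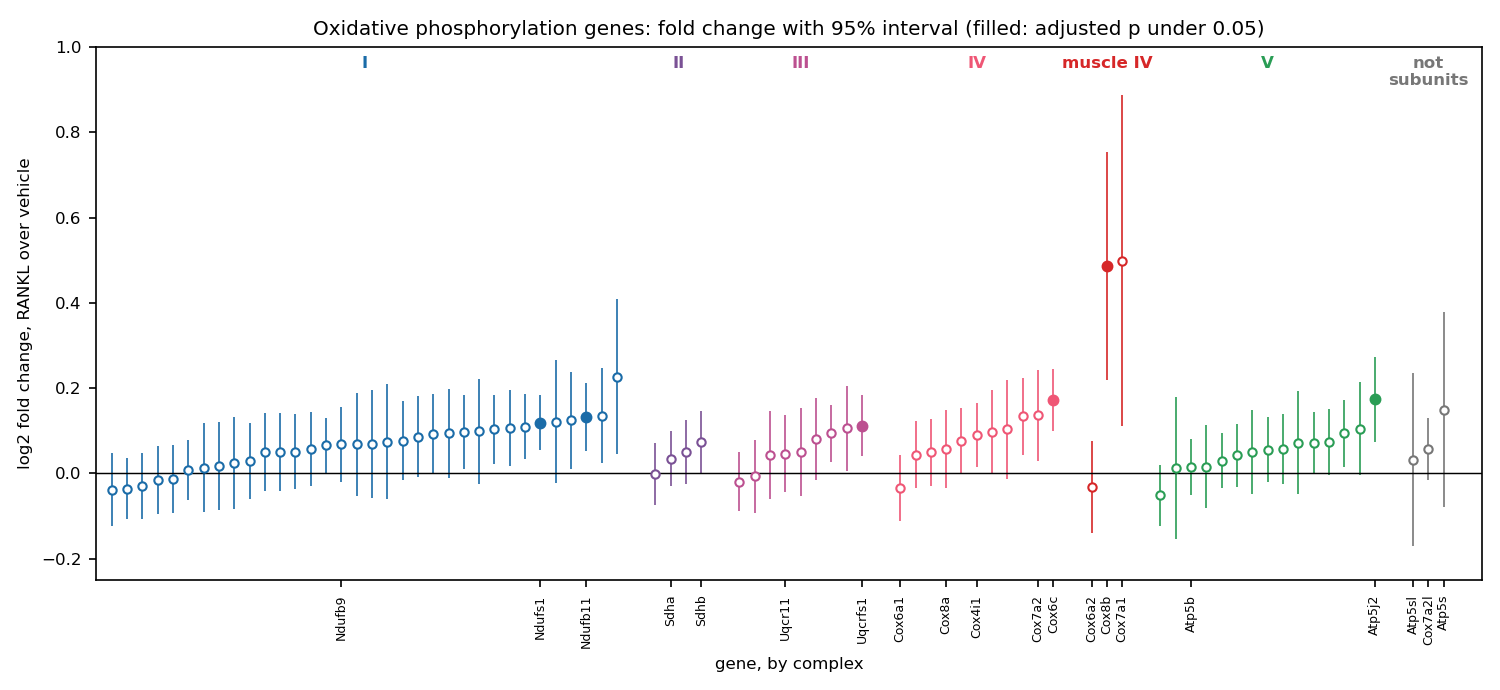
Log2 fold change of RANKL over vehicle for all 79 genes, ordered by complex, with names under the genes that the naming rule picks. Points are edgeR estimates, bars are 95% intervals and filled points have an adjusted p under 0.05. Most points lie slightly above 0 and only Cox8b and Cox7a1 lie above 0.3.

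Short genes outside the pathway showed shifts of similar size. Most subunit mRNAs are short: the members' median length was 724 bases, from 292 (Atp5k) to 2927 (Ndufs1), against 2958 bases over all genes. Among the 12546 other genes, the median log2 fold change was 0.08 below 500 bases, 0.05 from 500 to 999, 0.03 from 1000 to 1999, 0.00 from 2000 to 3999 and -0.02 from 4000 bases. In the same order of length, the members' medians were 0.11 (15 genes), 0.06 (36), 0.06 (23) and 0.03 (5). Other short genes were also mostly above 0, namely 76.8% of those below 500 bases and 70.5% of those from 500 to 999. For members these shares were 100% and 80.6%. From 1000 to 1999 bases 60.2% of other genes and 82.6% of members lay above 0, and from 2000 to 3999 bases 52% and 100%. In each of these classes the members' median was above that of other genes.

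Once the trend on gene length was removed within each library, the members' median became 0.01 (all genes -0.01). Of the 79 members, 45 lay above 0, against 5825 of all 12625 genes, so the members remained somewhat above the background. With the trend removed, edgeR called 3 members higher and 2 lower, against 5.56% and 9.4% of all genes. The 3 higher were Cox6c, Ndufs1 and Cox8b. The 2 lower were Atp5d, the delta subunit of the F1 part of the ATP synthase, and Ndufb10, a membrane arm subunit of complex I. Atp5d stood at -0.11 ± 0.03 (SE, adjusted p = 0.0114) and Ndufb10 at -0.10 ± 0.03 (adjusted p = 0.0492). Both were chosen after their values were seen. Without that step, Atp5d stood at -0.05 (adjusted p = 0.349) and Ndufb10 at -0.03 (adjusted p = 0.665), and neither was called. By complex, the medians with the trend removed were 0.01 for complexes I and II, -0.02 for complex III, 0.02 for complex IV and -0.00 for complex V. By length class, the members' median still exceeded that of other genes. It was 0.027 against 0.005 below 500 bases and -0.010 against -0.012 from 500 to 999. From 1000 to 1999 bases it was 0.018 against -0.017, and from 2000 to 3999 bases 0.014 against -0.008.

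**Figure D2:**
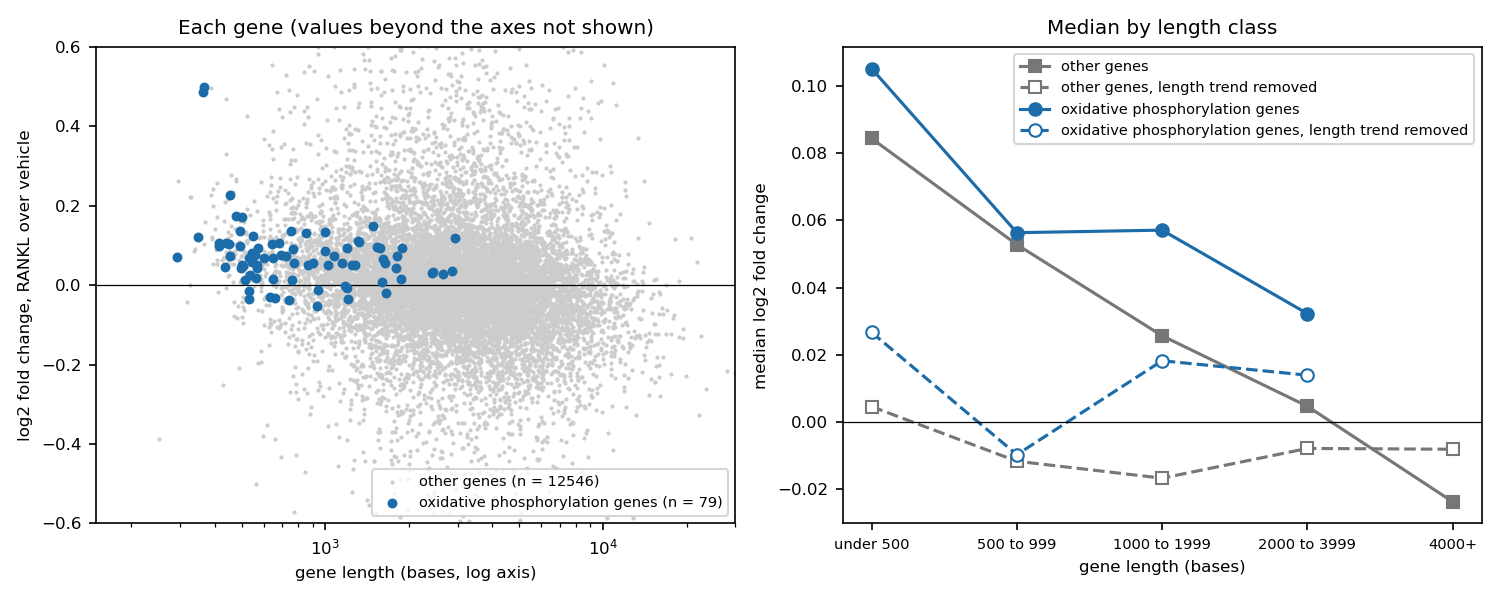
Left, log2 fold change of each gene against its length on a log axis, with the 79 oxidative phosphorylation genes in blue and other genes in grey. Right, the median per length class before (solid) and after (dashed) removal of the length trend: before it, the medians of other genes decline with length, and after it all medians lie between -0.02 and 0.03. Before and after it, the oxidative phosphorylation genes lie above other genes in each class that holds any of them.

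The medians were also taken library by library. Relative to the mean of the vehicle libraries, the members' median log2 CPM was -0.04, 0.00 and 0.04 in vehicle replicates 1, 2 and 3. In RANKL replicates 1, 2 and 3 it was 0.09, 0.09 and 0.02. RANKL replicate 3 therefore lay inside the range of the vehicle libraries. For the 789 other genes under 1000 bases, the medians were -0.05, -0.00 and 0.04 under vehicle and 0.08, 0.08 and 0.02 under RANKL. The median of all members thus lay close to that of other short genes in each library. The members include 23 genes of 1000 to 1999 bases and 5 of 2000 to 3999, so the 2 sets are not of like length. The 4013 other genes of 4000 bases and more went the other way, from 0.02 in vehicle replicate 1 to -0.04 in RANKL replicate 2. Without RANKL replicate 3, 11 members rose and 0 fell, against 5.91% and 6.89% of all genes. When vehicle replicate 1, vehicle replicate 2 or RANKL replicate 2 was left out, 2 members rose in each case, against 426, 373 and 468 of all genes.

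**Figure D3:**
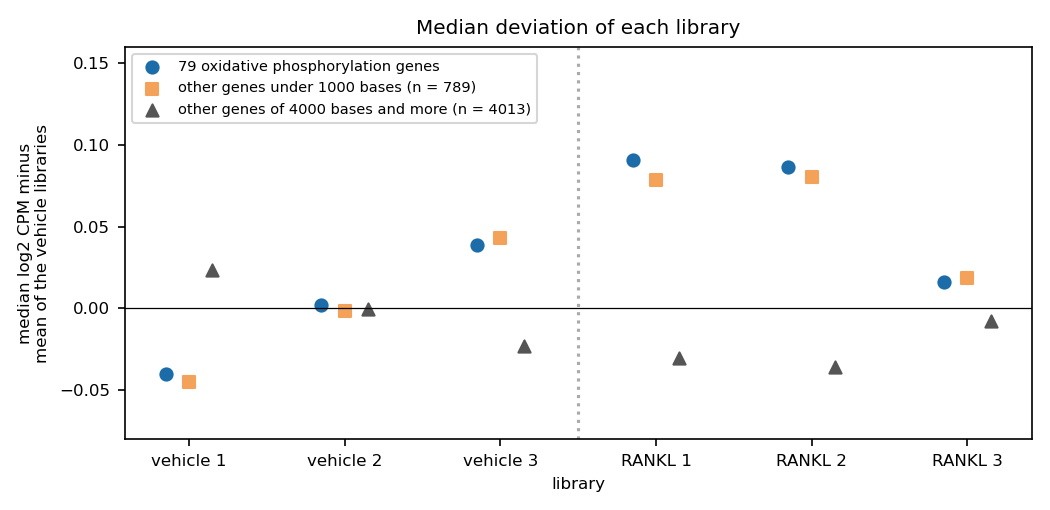
Median log2 CPM of each library minus the mean of the vehicle libraries, for the 79 oxidative phosphorylation genes, 789 other genes under 1000 bases and 4013 other genes of 4000 bases and more. The first pair lie close together in all 6 libraries, and RANKL replicate 3 lies within the range of the vehicle libraries.

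The 3 muscle isoforms of complex IV differed among themselves. Cox8b and Cox7a1 had the 2 largest log2 fold changes of all members, of which that of Cox8b passed the test, while Cox6a2 stood at -0.03. The groups overlapped in Cox7a1 and Cox6a2 and not in Cox8b. Cox8b, the muscle form of the small subunit VIII, lies on chromosome 7 from 140898945 to 140900446. It stood at 14.4, 15.6 and 15.3 CPM in vehicle replicates 1, 2 and 3 and at 25.9, 21.4 and 15.8 CPM in RANKL replicates 1, 2 and 3. RANKL replicates 1 and 2 were high, while RANKL replicate 3 was barely above the highest vehicle library. The log2 fold change was 0.49 ± 0.12 (SE, adjusted p = 0.0195 by edgeR), a 1.40-fold rise, and 0.40 ± 0.12 with the length trend removed (adjusted p = 0.0328). It was not called by DESeq2 (adjusted p = 0.136), nor without RANKL replicate 2 (0.0612) or any one of the vehicle replicates (0.0587 to 0.0946). Without RANKL replicate 1 the log2 fold change was 0.31 (adjusted p = 0.0307), and without RANKL replicate 3 it was 0.66 (adjusted p = 0.000175).

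Cox7a1, the muscle form of subunit VIIa, lies on chromosome 7 from 30184144 to 30186078 and was the least abundant subunit gene per kilobase, at 6.28 ± 0.339 RPKM (SD, n = 3) under vehicle. Its counts were 88, 81 and 81 in the vehicle libraries and 137, 130 and 74 in RANKL replicates 1, 2 and 3, or 2.26, 2.44 and 2.19 CPM against 3.63, 3.82 and 2.23 CPM. Again RANKL replicates 1 and 2 were high, and RANKL replicate 3 lay among the vehicle libraries. The log2 fold change was 0.50 ± 0.18 and did not pass the test (adjusted p = 0.0868). Without RANKL replicate 3 it was 0.70 (adjusted p = 0.00494).

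Cox6a2, the muscle form of subunit VIa, lies on chromosome 7 from 128205435 to 128206387. It stood at 51.6, 48.8 and 46.4 CPM under vehicle and 50.5, 48.0 and 45.0 CPM under RANKL. The groups overlapped over almost all of their range. Its log2 fold change was -0.03 ± 0.05 (adjusted p = 0.738), with a 95% interval from -0.14 to 0.08. The sign changed to 0.01 without vehicle replicate 1 or RANKL replicate 3. Its exons overlap those of Itgad on the opposite strand, and strand use in the counting was, for these counts, not given in the sources used here.

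Among the pairs, the widely expressed partners were more abundant. Cox8a stood at 69.2, 70.1 and 73.5 CPM under vehicle and 76.5, 75.8 and 69.0 CPM under RANKL, a log2 fold change of 0.06 ± 0.04 (adjusted p = 0.424). Per kilobase, Cox8b made up 24.2% ± 0.726 (SD, n = 3) of the sum of Cox8a and Cox8b under vehicle, and 33.7%, 29.8% and 25.6% in RANKL replicates 1, 2 and 3. All of these RANKL values were above the highest vehicle value of 25.1%, the last of them by little. Cox7a1 made up 8.06%, 8.02% and 6.91% of the sum with Cox7a2 under vehicle and 10.7%, 10.7% and 7.13% under RANKL, so the groups overlapped. Cox6a2 made up 33.0% ± 1.32 of the sum with Cox6a1 under vehicle and 33.0% ± 1.76 under RANKL. Cox7a2 had a log2 fold change of 0.14 ± 0.05 (adjusted p = 0.0891) and Cox6a1 of -0.03 ± 0.04 (adjusted p = 0.591). The sign of Cox8a turned to -0.02 with the length trend removed, and that of Cox6a1 to 0.02 with the trend on GC content removed.

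**Figure D4:**
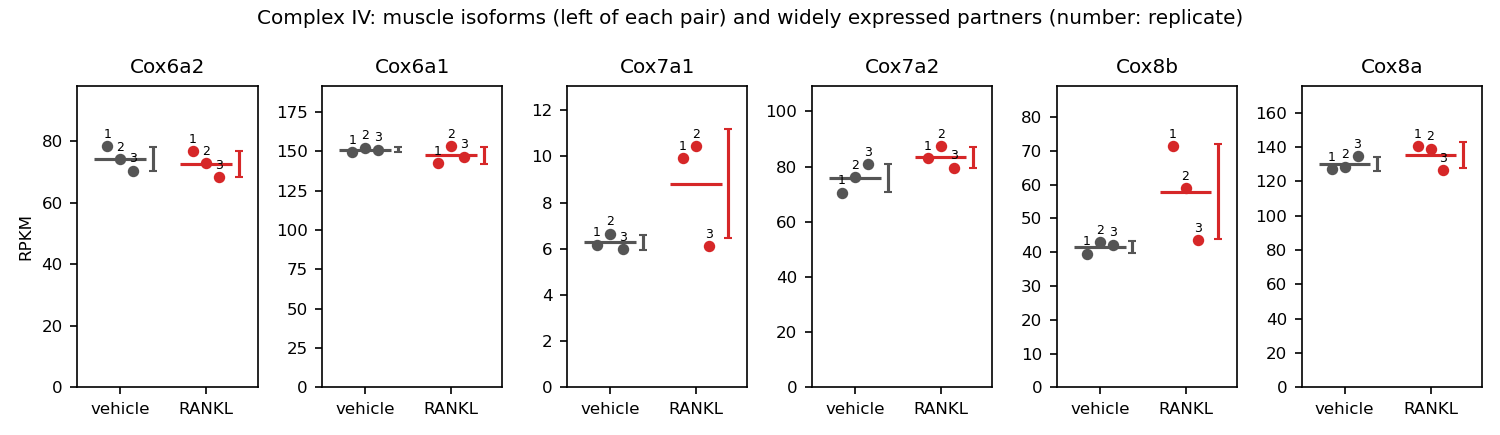
RPKM of the 3 muscle isoforms of complex IV and their widely expressed partners in each library, with the group mean (line) and SD (bar, n = 3), and axes from 0. Cox8b and Cox7a1 are high in RANKL replicates 1 and 2 and near the vehicle level in RANKL replicate 3. The groups overlap in every gene shown but Cox8b.

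Since Cox8b and Cox7a1 were both high in RANKL replicates 1 and 2 and Cox8a and Cox7a2 differed less, the 250 bases before the start of these 4 genes are shown. Those of Cox6a1, a pair member with a log2 fold change of -0.03, are added. All are given 5′ to 3′, from RefSeq on GRCm38.p6. The RefSeq start is not always that of GENCODE M21, which gave the gene positions: 27 bases of the Cox7a1 window, 25 of the Cox7a2 window and 23 of the Cox6a1 window lie inside the GENCODE gene, and 0 of the windows of Cox8b and Cox8a. Capitals mark any match, on either strand, to the E-box CAGCTG (a form that myogenic factors bind), TATAAA (the TATA box), CCGGAAG (a GABP site) or GCATGCG (the core of an NRF1 site). GCATGCG can overlap its own reverse complement.
Cox8b, chr7:140900447-140900696, minus strand: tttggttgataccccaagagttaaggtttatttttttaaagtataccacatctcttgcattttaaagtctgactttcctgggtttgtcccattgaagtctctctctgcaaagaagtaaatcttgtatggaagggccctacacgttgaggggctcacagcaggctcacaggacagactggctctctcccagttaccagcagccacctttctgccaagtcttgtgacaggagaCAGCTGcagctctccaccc
Cox8a, chr19:7217617-7217866, minus strand: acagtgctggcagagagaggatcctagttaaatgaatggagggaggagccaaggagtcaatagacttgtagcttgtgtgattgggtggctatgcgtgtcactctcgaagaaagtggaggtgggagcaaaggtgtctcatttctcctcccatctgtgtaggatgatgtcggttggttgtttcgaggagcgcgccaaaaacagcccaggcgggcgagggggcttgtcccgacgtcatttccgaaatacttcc
Cox7a1, chr7:30183921-30184170, plus strand: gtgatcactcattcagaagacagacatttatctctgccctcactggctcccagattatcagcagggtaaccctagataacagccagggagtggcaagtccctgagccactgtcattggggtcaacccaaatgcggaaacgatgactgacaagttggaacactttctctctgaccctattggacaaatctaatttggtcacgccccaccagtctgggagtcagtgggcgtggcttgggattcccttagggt
Cox7a2, chr9:79759854-79760103, minus strand: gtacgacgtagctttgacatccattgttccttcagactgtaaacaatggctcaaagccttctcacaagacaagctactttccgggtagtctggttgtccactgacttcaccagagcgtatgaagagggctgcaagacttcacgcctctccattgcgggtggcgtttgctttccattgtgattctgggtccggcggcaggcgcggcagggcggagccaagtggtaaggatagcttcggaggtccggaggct
Cox6a1, chr5:115348959-115349208, minus strand: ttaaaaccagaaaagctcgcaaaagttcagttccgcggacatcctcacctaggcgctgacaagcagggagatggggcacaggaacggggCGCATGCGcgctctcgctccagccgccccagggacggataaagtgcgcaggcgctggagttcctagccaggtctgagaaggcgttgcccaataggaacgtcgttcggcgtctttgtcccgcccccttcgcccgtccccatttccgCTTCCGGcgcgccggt

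Cox8b held 1 match, an E-box that begins 19 bases before the start. Cox8a, Cox7a1 and Cox7a2 held 0. Cox6a1 held CCGGAAG from 16 bases before the RefSeq start, inside the GENCODE gene, and GCATGCG on both strands from 161 and 160 bases before it. Over 32851 such windows of all genes, 13.0% held CAGCTG, 12.4% TATAAA, 6.91% CCGGAAG and 3.02% GCATGCG. Of the 66 members with a window, 5 held CAGCTG, 5 TATAAA, 12 CCGGAAG and 9 GCATGCG, or 7.58%, 7.58%, 18.2% and 13.6%. A match here is a description of letters and not a bound site.

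In the rest of complex IV, Cox6c rose. It is a small nuclear subunit, on chromosome 15 from 35925886 to 35938246, whose exons overlap Vps13b on the opposite strand. It stood at 132, 136 and 137 CPM under vehicle and 155, 155 and 146 CPM under RANKL. The groups did not overlap, and RANKL replicate 3 was again the lowest of its group. The log2 fold change was 0.17 ± 0.03 (adjusted p = 0.0044), and Cox6c was called in all 15 alternative settings, with log2 fold changes of 0.10 to 0.20. Cox4i1, which carries regulation of the complex by ATP and was its most abundant nuclear subunit at 278, 294 and 294 RPKM under vehicle, had a log2 fold change of 0.09 ± 0.03 (adjusted p = 0.104). It was called with scaling to total counts (adjusted p = 0.0404) and after removal of a GC content trend (0.0202). Cox7b lay just outside the threshold at 0.13 ± 0.04 (adjusted p = 0.0508) and was called in 7 of 15 settings (chosen after its values were seen). The other 6 members, Cox5a, Cox5b, Cox6b1, Cox7c, Ndufa4 and, as above, Cox8a, lay between 0.04 and 0.10 and were called in 0 settings.

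Complex I had 2 of 34 members higher and 0 lower, with log2 fold changes from -0.04 to 0.23. Of its 7 nuclear core subunits, which hold the flavin and iron-sulphur centres, 1 rose. This was Ndufs1, the largest, on chromosome 1 from 63143596 to 63176833. It stood at 152.2, 150.5 and 151.5 CPM under vehicle and 167.3, 162.2 and 163.7 CPM under RANKL, with no overlap. Its log2 fold change was 0.12 ± 0.03 (adjusted p = 0.0191) and 0.11 with the length trend removed. The call ended with the trend on GC content removed (0.07, adjusted p = 0.12) and without vehicle replicate 2 or 3 (adjusted p = 0.0868 and 0.0553). Its exons overlap Eef1b2 on the opposite strand, an abundant translation factor gene. The flavoprotein Ndufv1 stood at 0.07 ± 0.03 (adjusted p = 0.182), and the core subunits Ndufs3 and Ndufs7 stood at -0.01 and 0.01.

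Of the 12 Ndufb and Ndufc members, accessory subunits of the proton-pumping membrane arm, 1 rose. This was Ndufb11, on the X chromosome from 20615326 to 20617619, whose exons overlap Rbm10 on the opposite strand. It stood at 70.2, 72.1 and 74.3 CPM under vehicle and 82.0, 78.2 and 77.0 CPM under RANKL. The groups did not overlap, and the log2 fold change was 0.13 ± 0.04 (adjusted p = 0.0316). With the length trend removed it was 0.07 (adjusted p = 0.16), and the call also ended with DESeq2 (0.0536) and without vehicle replicate 1 or 2 (0.127 and 0.1) or RANKL replicate 1 or 2 (0.0904 and 0.0694). Ndufb4 had the widest interval, at 10.24, 8.626 and 10.45 CPM under vehicle and 11.22, 12.22 and 10.96 CPM under RANKL (log2 fold change 0.23 ± 0.08, adjusted p = 0.0954). Ndufb9 was the most abundant subunit gene of complex I, at 179, 180 and 190 RPKM under vehicle and 203, 188 and 184 RPKM under RANKL, and its groups overlapped. Among the 12 Ndufa accessory members 0 were called, with log2 fold changes from -0.04 (Ndufa8) to 0.14 (Ndufa1), and 4 had an unadjusted p under 0.05, all higher. DESeq2 and limma-voom also called 0 of these 12. Scaling to total counts called Ndufa9 higher (adjusted p = 0.0242), and without RANKL replicate 3 Ndufa1 (0.0282), Ndufa5 (0.0358) and Ndufa9 (0.0466) were called higher. The accessory subunits Ndufs4, Ndufs6 and Ndufv3 lay between 0.05 and 0.10 and were not called.

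Complex II, which is also an enzyme of the citrate cycle, had 0 of 4 members called by edgeR, DESeq2 or limma-voom, with 1 at an unadjusted p under 0.05. That was Sdhb, the iron-sulphur subunit, at 73.1, 75.4 and 73.0 CPM under vehicle and 77.5, 79.5 and 76.1 CPM under RANKL. The groups did not overlap, and the log2 fold change was 0.07 ± 0.03 (adjusted p = 0.183). Sdha, the flavoprotein and the most abundant of the 4 per kilobase, stood at 83.0, 83.3 and 85.2 RPKM under vehicle and 86.9, 84.9 and 85.9 RPKM under RANKL. Its log2 fold change was 0.04 ± 0.03 (adjusted p = 0.495). The membrane anchors Sdhc and Sdhd had log2 fold changes of -0.00 and 0.05.

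Of 9 members of complex III, 1 rose. Uqcrfs1, the Rieske iron-sulphur protein, lies on chromosome 13 from 30540308 to 30545362. It stood at 79.1, 81.9 and 83.1 CPM under vehicle and 88.2, 87.7 and 87.8 CPM under RANKL, with no overlap and a log2 fold change of 0.11 ± 0.03 (adjusted p = 0.0401). This call was the least stable of the 6, held in 4 of 15 settings, and ended without any one of the 6 libraries (adjusted p 0.0518 to 0.147) and with the length trend removed (0.06, adjusted p = 0.17). Cytochrome c1, Cyc1, and the core protein Uqcrc1 stood at -0.01 and -0.02. The other core protein, Uqcrc2, stood at 0.09 ± 0.03 (adjusted p = 0.0615). The 5 small subunits lay between 0.04 and 0.11, and Uqcr11, the most abundant of complex III at 213, 215 and 233 RPKM under vehicle and 230, 236 and 217 RPKM under RANKL, had a log2 fold change of 0.05 ± 0.04 (adjusted p = 0.526).

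Of 15 members of complex V, 1 rose. Atp5j2, the membrane subunit f, lies on chromosome 5 from 145183698 to 145192062. It stood at 75.6, 88.3 and 84.0 CPM under vehicle and 93.0, 94.2 and 92.1 CPM under RANKL. Vehicle replicate 1 was low, and the groups did not overlap. The log2 fold change was 0.17 ± 0.05 (adjusted p = 0.0247). Without vehicle replicate 1 it was 0.11 (adjusted p = 0.0964) and with the length trend removed 0.10 (adjusted p = 0.115). The call also ended without vehicle replicate 3 (0.0533) or RANKL replicate 2 (0.0862). Atp5b, the catalytic beta subunit, was the most abundant member per kilobase, at 692, 693 and 703 RPKM under vehicle and 718, 698 and 693 RPKM under RANKL. Its log2 fold change was 0.015 ± 0.03 (adjusted p = 0.809) and its 95% interval ran from -0.05 to 0.08. The alpha and gamma subunits, Atp5a1 and Atp5c1, stood at 0.03 and 0.04. The c subunit of the rotor ring is made from Atp5g1, Atp5g2 and Atp5g3, at 73.5, 102 and 266 RPKM under vehicle, and their log2 fold changes were 0.05, 0.02 and 0.07, none called. The peripheral stalk genes Atp5f1, Atp5h, Atp5j and Atp5o lay between 0.06 and 0.09 and were not called. Apart from Atp5d, given above, the remaining members were Atp5e of the F1 part and Atp5k and Atp5l of the membrane part. They stood at 0.11, 0.07 and 0.01 and were not called.

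The 3 genes that are not subunits were not called. Cox7a2l stood at 60.3, 60.9 and 61.4 CPM under vehicle and 63.1, 63.7 and 63.0 CPM under RANKL, a log2 fold change of 0.06 ± 0.03 (adjusted p = 0.313). Atp5s and Atp5sl were near 3 RPKM, with log2 fold changes of 0.15 ± 0.11 and 0.03 ± 0.09.

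Of 50 measured assembly factors, edgeR, DESeq2 and limma-voom called 0, 6 had an unadjusted p under 0.05, and the median log2 fold change was 0.05. Pet100, a complex IV assembly factor, had the smallest p, at 0.32 ± 0.11 (adjusted p = 0.0643), and was called in 5 of 15 settings. Another 5 genes were subunits or carriers under other symbols (Ndufab1, Cycs, Usmg5 and 2010107E04Rik) and the ATP synthase inhibitor Atpif1. Of these 5, 0 were called by these 3 tools, 1 had an unadjusted p under 0.05, and the median was 0.07. Subunits encoded by mitochondrial DNA are not analysed here. Among 77 mitochondrial ribosomal proteins 2 rose and 1 fell, and at an unadjusted p under 0.05 there were 10 higher and 4 lower. The called genes were Mrpl33 (0.23 ± 0.04, adjusted p = 0.00286), Mrpl24 (0.16 ± 0.04, adjusted p = 0.0297) and Mrps6 (-0.21 ± 0.06, adjusted p = 0.0444, chosen after its values were seen). Mrpl24 was called in 11 of 15 settings, not with the length trend removed, and Mrps6 was called in 8 of 15 settings. With the length trend removed, Mrpl33 was called higher and 4 were called lower, Mrps6 (-0.27), Mrpl38 (-0.17), Mrps17 (-0.15) and Mrpl37 (-0.12), chosen after their values were seen.

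Of 23 regulators of mitochondrial biogenesis 1 fell and 0 rose, with 1 higher and 5 lower at an unadjusted p under 0.05. The called gene was Prkaa2, a catalytic subunit of AMP-activated kinase, at 58.5 ± 3.72 CPM under vehicle and 51.7 ± 2.71 CPM under RANKL (mean ± SD, n = 3), with a log2 fold change of -0.18 ± 0.05 (adjusted p = 0.0321 by edgeR), and it was called in 11 of 15 settings. The call ended with total count scaling (0.0645) and without 1 of 3 libraries, namely vehicle replicates 1 and 2 (0.123 and 0.15) and RANKL replicate 2 (0.143). Of 17 citrate cycle and pyruvate dehydrogenase genes 1 rose and 0 fell, and at an unadjusted p under 0.05 there were 7 higher and 1 lower. With the length trend removed 0 were called higher and 2 lower, Mdh2 (-0.10, adjusted p = 0.025) and Dlst (-0.09, adjusted p = 0.0418), both chosen after their values were seen. The gene that rose without that step was fumarase (Fh1), at 66.9 ± 0.881 CPM under vehicle and 72.3 ± 1.45 CPM under RANKL, with a log2 fold change of 0.11 ± 0.03 (adjusted p = 0.0428 by edgeR). It was called in 5 of 15 settings, and the call ended without RANKL replicate 2 or 3, without any one of the vehicle replicates, and with the length trend removed (adjusted p 0.0706 to 0.156). Of 20 genes of mitochondrial membranes and protein import 0 were called by edgeR, DESeq2 or limma-voom, with 2 higher and 1 lower at an unadjusted p under 0.05. Mfn2, a fusion protein of the outer membrane, had the smallest p at -0.11 ± 0.04 (adjusted p = 0.0618). With the length trend removed it was called lower (adjusted p = 0.0418).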

How the data were processed

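RNA of 6 libraries was sequenced as paired-end reads of 75 bases, per the labels, which place RNA isolation and sequencing of all samples at one time. The submitters' processing notes list FastQC, STAR, edgeR and the build mm10, with no roles. Counter, annotation and strand use were not given in the sources used here. As for values, the authors deposited whole-number counts for 12625 symbols (4708 further lines hold no gene) and a table of log2 values without a stated unit. Read against the counts, the deposited log2 values are log2 RPKM with a prior count of 2, and the gene lengths they imply were used. The third-highest library had at least 0.504 CPM in every gene, and filterByExpr removed 0 genes.

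The test was edgeR 4.0.16 (R 4.3.3) with TMM scaling, filterByExpr and the quasi-likelihood F test, adjusted by Benjamini-Hochberg over all genes with a threshold of 0.05. The SE of a log2 fold change is its size over the square root of F. Per-library deviations used log2 of CPM plus 0.05. Alternatives were total count scaling, DESeq2 1.42.0, limma-voom (limma 3.58.1), other filters, natural splines of 4 degrees of freedom on length or GC content as offsets, a replicate block and leaving out each library (15 settings). On simulated counts for 12625 genes, the test recovered 70% of genes changed by log2 0.3 and 98% of genes changed by log2 1, and 7.69% of calls were unchanged genes. An added length trend gave 1942 calls of unchanged genes, and 9 once it was removed. The added trend was linear in log length, raised longer genes under RANKL and was the same in all RANKL libraries. In the data shorter genes were the higher ones and libraries differed, so these counts do not measure how well the trend was removed there. Between libraries of one group, chi-square per gene was 3.39 to 9.52, above sampling noise.

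Named genes were the isoform pairs, the most abundant member of each complex, up to 4 called members a direction and complex or the one with the smallest p, the non-subunits, and up to 2 genes a list. Other genes named were chosen after their values were seen. Members and lists were chosen with earlier results of these data known. The NRF1 motif was shortened to its core after a longer form had been searched. Positions are GENCODE M21 on mm10, and all 79 members matched (78 directly, 1 by an older name). Exons of 25 members overlap a gene on the opposite strand and of 5 on the same strand, and the assignment of such reads is not stated. For 4 members the annotation names pseudogenes that could share reads.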

Additional observations from a re-analysis of the deposited data

How the results depend on the processing

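Both the count of members called and their common direction depended on the processing. Against 6 higher and 0 lower, total count scaling gave 12 higher, and removal of the length trend 3 higher and 2 lower, with or without the replicate block. Leaving out 1 library gave 2 to 11 higher and 0 lower, DESeq2 4 higher and limma-voom 7. For DESeq2 and limma-voom no share over all genes is given here, so their counts are not set against a background. The members' median log2 fold change of 0.07 became 0.0073 with the length trend removed and 0.0072 with the replicate block as well, and lay between 0.04 and 0.10 in the other alternatives. With the length trend removed, 45 of 79 members lay above 0, against 68 without that step. Over all 12625 genes, 5825 lay above 0 with the length trend removed and 6532 without that step. Over all genes, 676 higher and 947 lower became 1070 and 626 with total count scaling, and 373 to 746 higher and 537 to 880 lower without 1 library. Scaling to total counts moved the median of all genes from 0.00 to 0.04.

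Among 20 named members and 300 alternative values, 252 kept direction and side of the threshold, 31 lost a call, 4 gained one and 13 changed sign, none of the last called. With the length trend removed these were Cox8a (-0.016), Ndufb9 (-0.0011), Uqcr11 (-0.031) and Atp5b (-0.017). With the replicate block and the length trend removed they were Cox8a (-0.017), Ndufb9 (-0.0016), Uqcr11 (-0.031) and Atp5b (-0.017). Cox6a1 turned to 0.020 with the GC trend removed. Without 1 library, Cox6a2 ranged from -0.072 to 0.012, above 0 without vehicle replicate 1 or RANKL replicate 3, and Atp5sl from -0.033 to 0.107, below 0 without vehicle replicate 3 or RANKL replicate 3. The causes of the other changes were not tested.

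Deviations of same-numbered libraries correlated at 0.159, 0.0586 and -0.0019, and those of differently numbered libraries at -0.161 to 0.111. The labels do not say whether a replicate number marks a shared culture, and with 3 libraries a group these values cannot decide it. With the replicate block 6 members were higher and 0 lower, and the median was 0.07. With 3 libraries a group, the members' median SE was 0.04. Recovery of changes below log2 0.3 was not simulated.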
